A study of Rattus norvegicus with 8 samples.

Results

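The genes examined were 7 subunit genes of the GABA-A receptor, namely Gabra2, Gabra3, Gabra4, Gabra5, Gabrb1, Gabrb2 and Gabrg1. They were picked by gene symbol, by a rule that uses no measured value but was set with earlier results of these data known, and all 7 had reads. They make up 7 of 18003 gene symbols and 105 of 98356 alternative polyadenylation (APA) sites in the files. Other subunit genes of the receptor are described here only where they belong to a list of related genes.

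The GABA-A receptor is a chloride channel in the nerve cell membrane, built as a ring of subunits and opened by GABA, the main inhibitory transmitter of the brain. Alpha and beta subunits together form the GABA binding sites, and a gamma subunit beside an alpha subunit forms the site for benzodiazepines. The alpha subunit sets much of the receptor's place in the cell and its drug response, and in the hypothalamus GABA signalling through these receptors restrains neurons that control feeding, stress and hormone release.

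Whole transcriptome termini site sequencing (WTTS-Seq), which reads the 3′ ends of polyadenylated RNA, was applied to RNA of the hypothalamus, its mediobasal part by the series description, of adult male Long-Evans rats. The 4 cannabis libraries came from rats that had breathed vaporized cannabis plant matter (CPM). The other 4 came from air-treated controls placed in an identical chamber with an empty vaporizer. Exposure lasted 10 min, and tissue was collected 1 hr after it, with food removed in between. The labels number the controls 1, 2, 3 and 4 and the cannabis-exposed rats 1, 2, 3 and 5, and each library is read here as 1 rat. The paper gives more rats per group for this experiment than there are libraries per group. It does not say how the rats relate to the libraries. In bulk tissue, fewer cells of a type and less RNA per cell cannot be told apart.

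Libraries held from 1159811 to 3706778 reads on sites. The authors deposited a normalized count per site, which is the number of reads divided by that library's size factor, and 1 read was worth from 0.664 to 1.99 normalized counts. The shallowest library of each group was air control 4, with 1159811 reads, and cannabis rat 1, with 1919709 reads. In air control 4, 26.1% of all sites had no read. The 7 genes together held 8809 reads, or 0.0425% of all reads on sites. WTTS-Seq is aimed at the 3′ end of each transcript. Gene totals, summed over all sites of a symbol, are therefore set beside each other without a length correction. Whether they grow with the length of a gene or its number of sites was not tested. Of 13 hypothalamic marker genes fixed as a list, 12 had sites, and their summed level was from 3310 to 5665 normalized counts in controls and from 7478 to 9542 in cannabis-exposed rats, without overlap. The gap lay mostly in Avp (vasopressin, 1952 ± 996 and 4934 ± 1383) and Oxt (oxytocin, 596 ± 244 and 1193 ± 343; SD, n = 4), the only markers of that list with P under 0.01 in limma. The sums of the other 10 overlapped, at 1491 to 1805 and 1748 to 2526. Slc6a3, Th and En1, listed as markers of midbrain dopamine neurons, summed to 542 to 738 in controls and 90.7 to 236.6 in cannabis-exposed rats. Limma gave P under 0.01 for all 3. The paper had already reported differential sites in these 3 genes, and in Avp and Oxt, from these data. These gaps are therefore not independent of its results. The sums of the thalamic and endothelial markers did not overlap between groups either (165.2 to 172.4 against 178.8 to 229.2, and 81.1 to 88.0 against 93.0 to 115.5 normalized counts), although none of these 6 genes had P under 0.01 in limma. The sums for all other marker lists overlapped between groups. These were GABA neurons, glutamate neurons, all neurons, astrocytes, oligodendrocytes, microglia, cortex, striatum, choroid plexus and pituitary. The part of these marker differences in the subunit values was not tested.

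None of the 7 gene totals differed between cannabis-exposed rats and air-treated controls beyond the spread between rats. Their log2 fold changes lay between -0.29 and 0.46, 5 of 7 were above 0, and the median was 0.22 where the median over all gene symbols was 0.05. In limma, fitted to log2(gene total + 1) of all 18003 symbols, no member had P under 0.01, against 0.278% of all symbols, and none had P under 0.05, against 2.41%. The adjusted P was 0.999 for each of the 7, and 0.00555% of all symbols had an adjusted P under 0.1. On the recovered reads no member had P under 0.05 with edgeR (2.52% of all symbols, and 0.3% with P under 0.01) or with DESeq2 (2.18%, and 0.422% with P under 0.01). In every one of the 7 genes the groups overlapped, as they did in all but 1.98% of the gene symbols. An exact permutation test of 4 against 4 rats cannot give a P below 0.0286.

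The order of the gene totals ran from Gabrb1 at 379 ± 37.9 normalized counts (SD, n = 8), through Gabrb2 at 161.5 ± 44.9, Gabra5 at 153.2 ± 36.0, Gabra2 at 143.6 ± 21.3, Gabrg1 at 84.8 ± 30.8 and Gabra3 at 33.2 ± 7.69, to Gabra4 at 18.8 ± 7.14. Gabrb1 was above Gabrb2 in 8 of 8 libraries, and Gabra2 was above Gabrg1 in 8 of 8. The middle of the order was not settled by the spread between libraries, since Gabrb2 was above Gabra5 in 6 of 8 libraries and Gabra5 above Gabra2 in 6 of 8. Gabrg1 was above Gabra3 in 7 of 8 libraries, and Gabra3 above Gabra4 in 7 of 8. The mean of Gabrb1 was above that of 95.1% of all gene symbols, and that of Gabra4 above 45.2%. This order holds for sums over all sites of a gene. By the most-read site alone, Gabra5 stood highest with a mean of 123.8 normalized counts. Gabrb2 at 83.6, Gabrg1 at 67.7 and Gabrb1 at 66.7 followed.

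**Figure D1:**
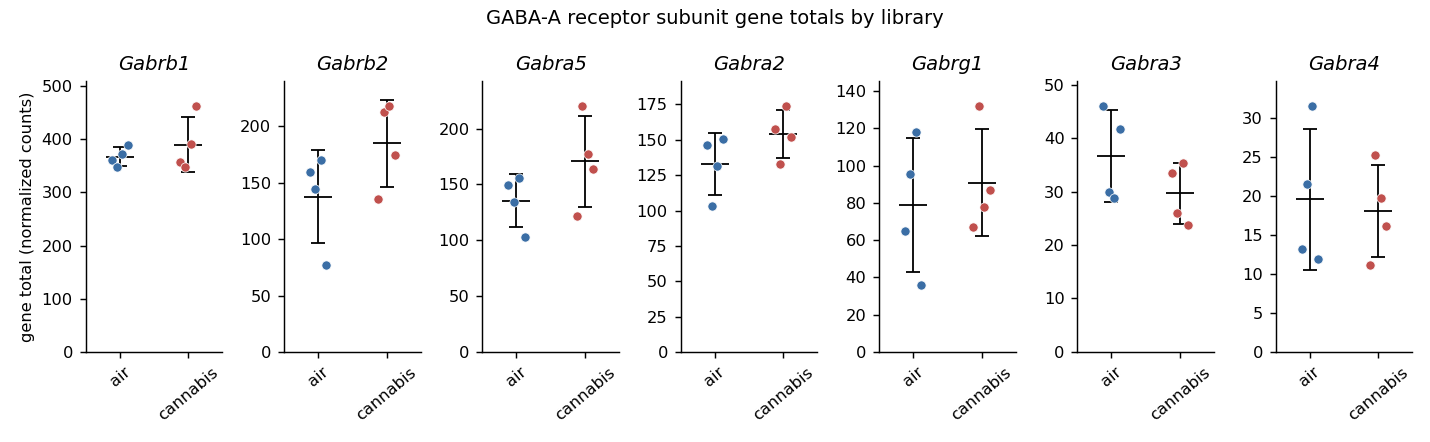
Gene total in normalized counts of each subunit gene, 1 panel per gene with its own axis from 0, in 4 air-treated controls (blue) and 4 cannabis-exposed rats (red). Points are libraries, and the bars are the mean ± SD of a group. The 2 groups overlap in all 7 panels, and 1 control library lies well below the others for Gabrb2 at 77.5 and for Gabrg1 at 35.7.

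Of the beta subunit genes in the set, Gabrb1 had the higher gene total, summed over all its sites. Controls 1 to 4 had 361, 347, 372 and 389 normalized counts of Gabrb1, and cannabis rats 1, 2, 3 and 5 had 358, 349, 391 and 463. Cannabis rat 5 stood highest, and the other 3 cannabis libraries fell within or next to the range of the controls. The log2 fold change was 0.08 (95% confidence interval -0.31 to 0.47, limma P = 0.674, exact permutation P = 0.571). Gabrb1 also varied least of the 7 genes, its highest library being 1.33 times its lowest.

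Gabrb2 encodes a beta subunit that is widespread in brain, usually in receptors with a gamma subunit. Its totals were 159.4, 144.9, 169.9 and 77.5 normalized counts in controls 1 to 4 and 135.4, 212.6, 218.5 and 174.4 in cannabis rats 1, 2, 3 and 5. In cannabis rats 2, 3 and 5 the total was above that of every control, and cannabis rat 1 lay below 3 of the 4 controls. This was the widest difference of the 7 genes, a log2 fold change of 0.46 (95% confidence interval -0.13 to 1.05, limma P = 0.116, exact permutation P = 0.171). It rested partly on air control 4, whose 77.5 normalized counts came from 39 reads. Without that library the log2 fold change was 0.21, and without cannabis rat 1 it was 0.60. The lowest limma P of Gabrb2 in any alternative was 0.0529.

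Of the alpha subunits, Gabra5 encodes one known mainly from receptors outside synapses that carry a steady, tonic current. Controls 1 to 4 had 149.1, 134.1, 155.8 and 103.3 normalized counts, and cannabis rats 1, 2, 3 and 5 had 121.7, 220.5, 177.1 and 163.6. As at Gabrb2, cannabis rats 2, 3 and 5 were above all controls, and cannabis rat 1 was not. The log2 fold change was 0.32 (95% confidence interval -0.19 to 0.83, limma P = 0.203, exact permutation P = 0.229).

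Gabra2 encodes an alpha subunit found at many forebrain synapses, including those at the start of the axon. Its totals were 146.2, 103.0, 131.6 and 150.9 normalized counts in controls 1 to 4 and 157.7, 132.9, 174.2 and 152.1 in cannabis rats 1, 2, 3 and 5. Cannabis rat 2 lay within the range of the controls, and the other 3 cannabis rats lay above it, cannabis rat 5 only just. The log2 fold change was 0.22 (95% confidence interval -0.23 to 0.68, limma P = 0.313, exact permutation P = 0.143).

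Gabra3 and Gabra4 were the least read members, with from 21 to 63 and from 6 to 47 reads in a library. Gabra3, an alpha subunit gene used by many monoamine neurons, had 46.1, 29.9, 28.9 and 41.7 normalized counts in controls 1 to 4 and 33.5, 25.9, 35.4 and 23.8 in cannabis rats 1, 2, 3 and 5. It was the member with the lowest log2 fold change, -0.29 (95% confidence interval -0.91 to 0.34, limma P = 0.340, exact permutation P = 0.229), and the groups overlapped, with controls from 28.9 to 46.1 and cannabis-exposed rats from 23.8 to 35.4. Gabra4 encodes an alpha subunit that makes receptors insensitive to diazepam. It had 13.2, 21.5, 31.6 and 11.9 normalized counts in controls 1 to 4 and 11.2, 25.2, 19.7 and 16.1 in cannabis rats 1, 2, 3 and 5. With a log2 fold change of -0.06 (95% confidence interval -0.91 to 0.79, limma P = 0.878, exact permutation P = 0.886), the data for Gabra4 allow anything from 0.532 to 1.73 times the control level on the log2(total + 1) scale.

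Gabrg1, the gamma subunit gene of the set, encodes a subunit found in fewer brain regions than the common gamma subunit. Controls 1 to 4 had 65.1, 95.8, 118.2 and 35.7 normalized counts, and cannabis rats 1, 2, 3 and 5 had 67.1, 132.2, 77.7 and 86.8. The highest library was 3.70 times the lowest, the widest range of the 7 genes. The log2 fold change was 0.29 (95% confidence interval -0.47 to 1.05, limma P = 0.422, exact permutation P = 0.543). It went to -0.04 when air control 4 was left out, where Gabrg1 had 18 reads.

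**Figure D2:**
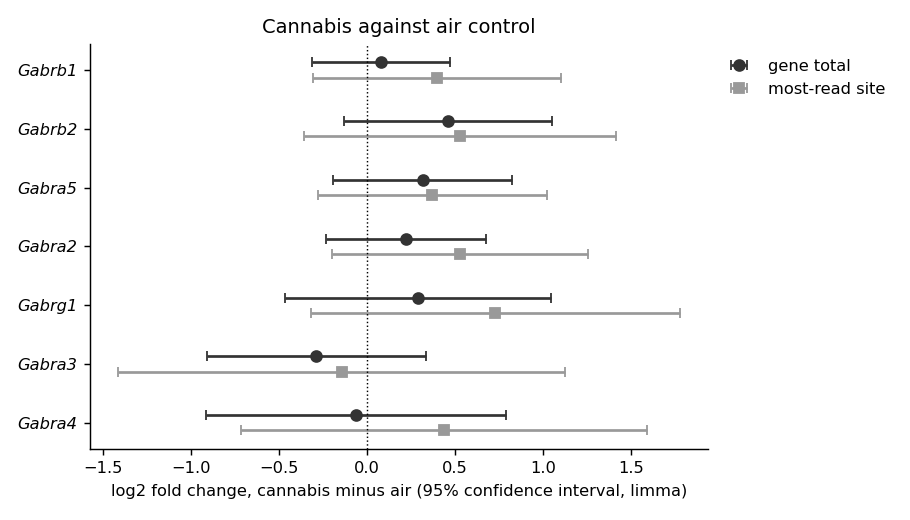
Log2 fold change of cannabis-exposed rats against air-treated controls with its 95% confidence interval from limma, for the gene total (dark circles) and the site with the most reads (grey squares) of each gene, in the order of the gene totals. All 14 intervals include 0, and the fold change of the most-read site is above that of the gene total for all 7 genes.

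Summed over the 7 genes, controls had 909 ± 84.7 and cannabis-exposed rats 1039 ± 103.4 normalized counts (SD, n = 4), with overlapping groups and P = 0.0857 by the exact permutation test. The make-up of that sum was alike in both groups by its ranges. Gabrb1 gave 40.7% ± 4.99 of it in controls and 37.7% ± 4.95 after cannabis (SD, n = 4), Gabra5 gave 14.8% ± 1.42 and 16.3% ± 2.71, and Gabra3 gave 4.08% ± 1.11 and 2.90% ± 0.750. In all 7 genes the share of the sum overlapped between groups.

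Several totals were low in the libraries with the fewest reads. Gabra4, Gabra5, Gabrb2 and Gabrg1 were each lowest in air control 4 among the controls and lowest in cannabis rat 1 among the cannabis-exposed rats, the library with the fewest reads in each group. Gabra2 and Gabrb1 went the other way among the controls, with their highest control level in air control 4. Across the 8 libraries, Pearson's r between the log2 gene total and the log2 reads of the library was 0.83 for Gabra5, 0.82 for Gabrb2 and 0.80 for Gabrg1 (Spearman's rho 0.79, 0.69 and 0.69), although the totals are already divided by the size factor. These values were higher than those of 94.4%, 93.6% and 92.0% of the gene symbols with a mean of at least 100 normalized counts and are given as a description. Without the 2 libraries farthest from the median depth, air control 4 and cannabis rat 2, r was 0.54, 0.32 and 0.26. For Gabra2 and Gabrb1 r was -0.09 and 0.01. In the fit without the shallowest library of each group, chosen after seeing the data, the log2 fold changes were 0.35 for Gabrb2, 0.34 for Gabra5 and 0.09 for Gabrg1, and P was at least 0.111 for all 7 genes in limma.

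**Figure D3:**
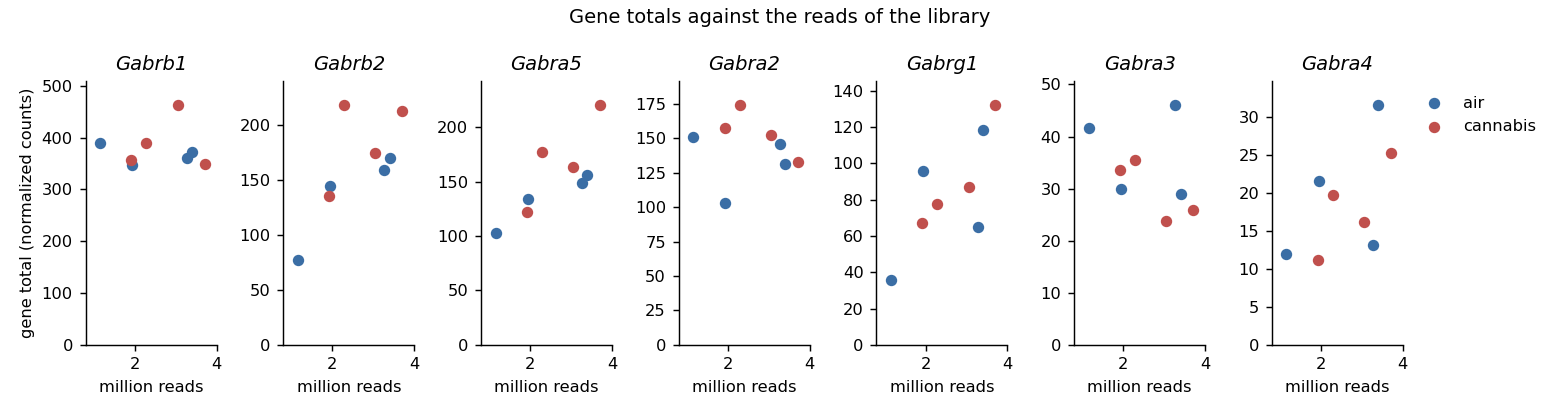
Gene total in normalized counts (axis from 0, 1 panel per gene) against the number of reads of the library, for air-treated controls (blue) and cannabis-exposed rats (red). Gabra5, Gabrb2 and Gabrg1 are lowest in the control library with the fewest reads, at 103.3, 77.5 and 35.7, while Gabrb1 at 389 and Gabra2 at 150.9 are not.

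Among the 21 pairs of members, the log2 totals of Gabra5 and Gabrb2 went together most closely over the 8 libraries (Pearson's r = 0.91), followed by Gabra4 with Gabrg1 (0.83), Gabrb2 with Gabrg1 (0.81) and Gabra5 with Gabrg1 (0.79). Gabra3 and Gabrg1 ran in opposite directions (r = -0.74). All points share their library, its depth and its size factor. In the gene order of the GRCr8 assembly, Gabrb1 is next to Gabra4 and Gabra2 is next to Gabrg1, all on chromosome 14, with r = -0.18 and -0.43 for these neighbouring pairs. The symbol whose pattern over the 8 libraries was most like that of a member, among those with a mean of at least 100 normalized counts, was Prkca for Gabrb2 (r = 0.98), Pdia6 for Gabra5 (0.98), Fam19a2 for Gabrb1 (0.98), Trnr for Gabrg1 (0.97), Vwa8 for Gabra3 (0.97), Ensa for Gabra4 (0.95) and Mslnl for Gabra2 (0.91). Each is the highest of at least 3653 values, and such a maximum is high by selection.

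The 105 sites were spread unevenly over the genes. Gabrb1 had 48 sites, Gabrb2 16, Gabra2 14, Gabra3 9, Gabra5 7, Gabra4 6 and Gabrg1 5. Among the 7946 symbols with at least 2 sites and a mean total from 15 to 400 normalized counts, the median number of sites was 4, and 99.8% had fewer sites than Gabrb1. Most sites were thinly read, with a median of 31 reads over all 8 libraries. Only 16 of the 105 reached a mean of 10 normalized counts, and 53 had no read in at least 1 library. A library without a read still allows a level of up to 3 reads, which is from 1.99 to 5.96 normalized counts by library, for counting error only. Sites are numbered here within a gene by falling total reads. The position and location class of the single sites were not used here, so it is not stated which are at transcript ends and which in introns.

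In Gabra5 and Gabrg1 a single site held most reads. The first Gabra5 site had 80.9% of the gene total and the first Gabrg1 site 79.8%. Gabrb2 and Gabra2 came next, with 51.7% and 44.9% in the first site and 76.0% and 73.0% in the first 3 sites. The first 3 of the Gabrb1 sites held only 36.8%, and no Gabra3 site held more than 16.7% of the mean gene total. In single libraries the Gabra3 shares were less even, and the fifth site held 52.4% in air control 4 and 40.7% in cannabis rat 1 but from 0 to 6.45% in the other 6. The first 3 sites of the 7 genes were read with 21 to 1142 reads.

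**Figure D4:**
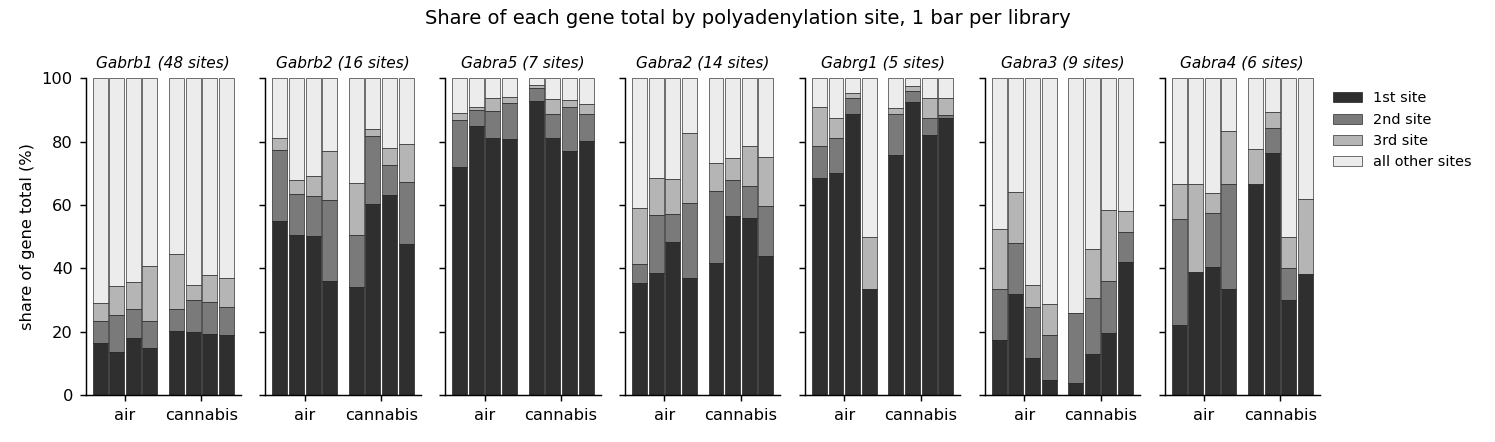
Share of each gene total (%) held by each of its 3 sites with the most reads and by all other sites, with 1 stacked bar per library, controls 1 to 4 on the left and cannabis rats 1, 2, 3 and 5 on the right of each panel. One dark segment dominates Gabra5 and Gabrg1, except in the control with the fewest reads, where the first Gabrg1 site held 33.3%, while Gabrb1 is split among many sites in every library.

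No site of the 7 genes passed the test between cannabis-exposed rats and air-treated controls. In limma, fitted to log2(normalized count + 1) of all 98356 sites, 0 of the 105 sites had P under 0.01, against 0.381% of all sites, and 0 had P under 0.05, against 3.03%. The lowest P was 0.0509, at the fourth Gabra5 site, and the lowest adjusted P was 1.00, where 0.00102% of all sites had an adjusted P under 0.1. On the recovered reads, 0 had P under 0.01 with edgeR (0.526% of all sites) and 0 with DESeq2 (0.315%), and under 0.05 there was 1 with edgeR (2.91%) and 0 with DESeq2 (1.86%). Of the 105 fold changes 52 were above 0 and 53 below, with a median of -0.02.

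**Figure D5:**
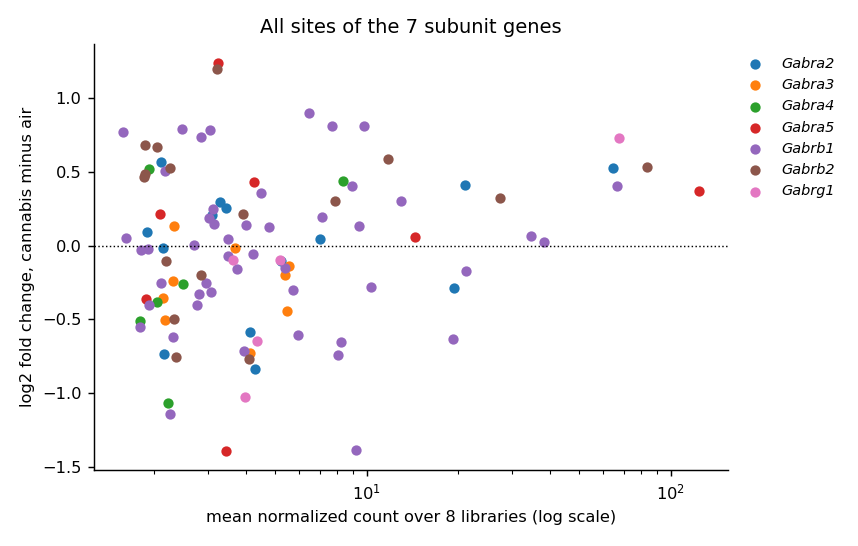
Log2 fold change of cannabis-exposed rats against air-treated controls for each of the 105 sites, coloured by gene, against the mean normalized count of the site over 8 libraries on a log scale. Points scatter about 0, with 52 above and 53 below, and the widest fold changes belong to sites with a mean under 10 normalized counts.

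The most-read sites are the best measured. For 6 of the 7 genes the mean of the first site was higher in cannabis-exposed rats, with log2 fold changes from -0.14 to 0.73 and P from 0.147 to 0.819 in limma. The median of these 7 was 0.44, and it was 0.07 over the most-read sites of all 18003 symbols. At the first Gabra2 site the controls had 51.9, 39.5, 63.8 and 55.6 normalized counts and the cannabis-exposed rats 65.8, 75.1, 97.4 and 66.8. Every cannabis library was thus above every control. The log2 fold change at this site was 0.53 (95% confidence interval -0.20 to 1.25, limma P = 0.147, adjusted 1.00), and P was 0.0286 by the exact permutation test, the smallest it can give.

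The first Gabrb1 site also separated the groups, with 59.2, 46.7, 66.5 and 57.6 normalized counts in controls and 72.0, 69.1, 74.8 and 87.6 in cannabis-exposed rats. Its log2 fold change was 0.40 (95% confidence interval -0.30 to 1.10, limma P = 0.252, adjusted 1.00, exact permutation P = 0.0286). As a share of Gabrb1, the site held 15.6% ± 1.92 in controls and 19.5% ± 0.573 after cannabis (SD, n = 4). The shares did not overlap between groups either. Against the rest of its gene, the site had a log2 ratio change of 0.39 (limma P = 0.458, adjusted 1.00, exact permutation P of the share = 0.0286). Here too the limma P draws on the other sites fitted, and the exact permutation P only on these 8 libraries. The first Gabra2 and Gabrb1 sites were the 2 of the 105 sites whose levels did not overlap between groups, 1.90% of them, and 2.0% of all 98356 sites did so. In their shares of the gene 3 of the 105 did not overlap, against 2.05% of all sites tested for usage.

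At the first Gabra5 site controls had 107.5, 113.7, 126.2 and 83.4 normalized counts and cannabis-exposed rats 113.0, 178.7, 136.8 and 131.3. Only cannabis rat 1 lay within the range of the controls (log2 fold change 0.37, limma P = 0.250, exact permutation P = 0.0857). The first Gabrb2 site had 87.7, 73.0, 85.3 and 27.8 normalized counts in controls and 45.9, 128.2, 137.8 and 83.0 in cannabis-exposed rats. Cannabis rats 2 and 3 stood above the rest, and the groups overlapped (log2 fold change 0.53, limma P = 0.230, exact permutation P = 0.457). At the first Gabrg1 site controls had 44.6, 67.0, 104.7 and 11.9 and cannabis-exposed rats 50.9, 122.2, 64.0 and 76.0 normalized counts, with 11.9 from only 6 reads in air control 4 (log2 fold change 0.73, limma P = 0.163, exact permutation P = 0.371). The first sites of Gabra3 and Gabra4 had at most 9.98 and 19.3 normalized counts in a library, and their groups overlapped.

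The second and the third sites showed no common direction. Of Gabrb1, the second site had 33.7 ± 6.23 and 35.4 ± 7.40 normalized counts and the third 37.8 ± 20.5 and 38.6 ± 18.9 in controls and cannabis-exposed rats (SD, n = 4), with log2 fold changes of 0.06 and 0.02. At the third Gabrb1 site, air control 4 at 67.5 and cannabis rat 1 at 62.1 were the highest libraries, the reverse of the order at Gabra5, Gabrb2 and Gabrg1. The second Gabra2 site was likewise highest in these 2 libraries, at 35.7 and 36.0 normalized counts, where the other 6 had from 8.77 to 23.8. The second Gabrb2 site had 24.1 ± 7.89 and 30.9 ± 11.8 normalized counts and the second Gabra5 site 13.6 ± 6.15 and 15.2 ± 8.15 in controls and cannabis-exposed rats (SD, n = 4).

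Site usage, the balance of a site against all other sites of its gene, was tested apart from the level, since a site can move with its gene. In limma, fitted to the log2 ratio of the site to the rest of its gene over 54160 sites, 0 of the 105 sites had P under 0.01, against 0.451% of all sites tested, and 3 (2.86%) had P under 0.05, against 3.22%. All 3 had an adjusted P of 1.00 and were singled out after their values were seen. The fourth Gabra5 site held 3.64% of its gene in controls and 0.955% in cannabis-exposed rats (limma P = 0.0165, exact permutation P of the share = 0.0857), with 12, 3, 5 and 2 reads in controls and 0, 9, 2 and 0 in cannabis-exposed rats. At the fourth Gabrg1 site the shares were 7.82% and 2.79% (limma P = 0.0381, exact permutation P of the share = 0.0571), and at the fifth Gabrb2 site 3.83% and 1.29% (0.0434 and 0.0286). These sites had between 1 and 19 reads per library apart from the zeros at Gabra5, so their usage is poorly measured. The first Gabrg1 site held 65.1% ± 23.1 in controls and 84.6% ± 7.11 after cannabis (SD, n = 4), and P was 0.0682 in limma and 0.143 by the exact permutation test. The share was lowest in air control 4, at 33.3%.

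The related genes, from lists fixed beside the members, gave no gene with P under 0.01 or 0.05 in the limma fit of gene totals. Of 8 further subunit genes listed as less abundant ones, 6 had sites, and their median log2 fold change was -0.11. The most abundant of them were Gabrq, at 142.3 ± 46.4 normalized counts in controls and 178.9 ± 45.2 in cannabis-exposed rats, and Gabrg3, at 138.1 ± 21.2 and 150.9 ± 33.1 (SD, n = 4), levels close to those of Gabra2 and Gabra5. Gabrq encodes a subunit known from the hypothalamus and brainstem. All 19 genes for scaffolding and trafficking of the receptor had sites, with a median log2 fold change of 0.05 and a range from -0.50 to 0.85. Gabarap, which binds gamma subunits and takes part in autophagy, had 1582 ± 538 and 1883 ± 1462 normalized counts, and its relative Gabarapl1 had 527.6 ± 162.9 and 621 ± 213 in controls and cannabis-exposed rats (SD, n = 4).

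Of the 5 genes of the GABA-B receptor, the G protein-coupled receptor for GABA, and its KCTD partners, all had sites and the median log2 fold change was -0.03. Gabbr1 had 3993 ± 421 normalized counts in controls and 3934 ± 597 in cannabis-exposed rats, and Kctd16 had 138.9 ± 34.1 and 143.5 ± 14.8 (SD, n = 4). For chloride transport, which sets the direction of the GABA-A current, 4 of 5 listed genes had sites, and their log2 fold changes ran from -0.33 to 0.20. The importer gene Slc12a2 had 141.7 ± 55.2 and 105.8 ± 19.0 normalized counts, and the neuronal exporter gene Slc12a5 had 80.5 ± 18.9 and 93.8 ± 27.7 in controls and cannabis-exposed rats (SD, n = 4). The GABA neuron genes Gad1, Gad2 and Slc32a1 together had from 693 to 1202 normalized counts in controls and from 717 to 1546 in cannabis-exposed rats.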

How the data were processed

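Rat hypothalamic WTTS-Seq libraries of 4 cannabis-exposed rats and 4 air-treated controls were grouped by their titles. Before deposit the authors quality-filtered the reads (FASTX Toolkit), removed Ts at read starts, aligned them to Rnor_6.0 using TMAP, grouped read ends as APA sites and named genes by Cuffcompare, and the sparsest site in the files has 16 reads, and the method keeps the strand. The values the authors deposited are a signal per site, normalized counts, which are reads over a DESeq2 size factor, 1 file per library. The 8 files were joined by row, and their symbol columns were equal.

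Reads were recovered by dividing by the value of 1 read, and 100% of the values came out whole to within 0.01 reads. Gene totals are sums over the sites of a symbol. Levels were tested with limma 3.58.1 (lmFit, eBayes with trend) in R 4.3.3 on log2(value + 1), without covariates, on all 98356 sites or 18003 symbols, with Benjamini-Hochberg adjustment over each table. A fold change on this scale understates that of low values. Usage is log2((site + 1)/(rest of gene + 1)) of sites in genes with at least 2 sites and a mean total of at least 10. Thresholds were P under 0.01 and adjusted P under 0.1, as in the study. Exact permutation tests are two-sided. Each step was tested on simulated data with known answers, and the usage step recovered too few of them for the limit first set, which was then lowered, so it misses more than the other steps do. Alternatives were edgeR 4.0.16 (quasi-likelihood, TMM), DESeq2 1.42.0, a pseudocount of 0.5 or 5, only means from 10 upward, equal library totals, no trend, blocking on replicate number, leaving out libraries in turn, and the site with the most reads alone. The rest ran in Python 3.11.15 with pandas 2.3.3, numpy 2.4.6, matplotlib 3.10.9 and scipy 1.17.1.

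The members and lists were chosen with earlier results of these data known. Named in the text were all 7 genes, the 3 sites of each with the most reads, any site with P under 0.01 (none), the 2 most abundant genes of each pathway list and, for likeness, 1 symbol per member. List genes with P under 0.01 were named as well. Outside that rule, the fourth Gabra5, the fourth Gabrg1, the fifth Gabrb2 and the fifth Gabra3 sites were chosen after their values were seen. Gene order was taken from RefSeq (GRCr8), in which all 7 symbols matched. The file headers carry an Ion number per library whose meaning is not given in the sources used here, and it was not used as a batch. The labels give only group and number, so the exact permutation P measures the spread between these libraries. The limma P also draws on the other sites or symbols fitted, since eBayes moderates each variance toward a trend over them. For the first Gabrb1 site the limma P was 0.252 among all sites and 0.161 among the most-read sites alone.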

Additional observations from a re-analysis of the deposited data

Results flagged for a closer look

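In 3 of 98 groups of 4 libraries that were checked for a library far from the others, 1 library stood apart by Dixon's criterion, which chance alone meets in about 1 of 20 groups. At the first Gabra4 site, cannabis rat 2 had 19.3 normalized counts, where the other cannabis-exposed rats had from 5.90 to 7.45. Air control 2 had 5.99 normalized counts at the third Gabra4 site, where the other controls had from 1.46 to 2.01. At the second Gabrb2 site, air control 1 had 35.8 normalized counts, and the other controls had from 19.2 to 21.5. No total of the 7 genes met the criterion.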

How the results depend on the processing

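No gene total of the 7 members and none of their sites had P under 0.01 in limma in any alternative that was run, nor with edgeR or DESeq2. For the gene totals that covers 126 values. Leaving out single libraries moved the log2 fold change of Gabrb2 between 0.21 and 0.60 and that of Gabrg1 between -0.04 and 0.53. The sign changed in some alternatives for Gabra4, Gabrb1 and Gabrg1, all with P above 0.01. Over all 54160 sites tested for usage, 237 had P under 0.01 in limma without air control 2 and 273 without cannabis rat 2. With each library left out in turn, from 0 to 1 of the 105 member sites passed in usage. That site was the second of Gabra4 without air control 2 (log2 ratio change -2.08, P = 0.00570 in limma) and the fourth of Gabra5 without cannabis rat 2 (-2.19, P = 0.00513), each with an adjusted limma P of 1.00, and the exact permutation test was not run there.

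Over all sites, 375 had P under 0.01 in limma, 44 with a mean of at least 10, 229 with the replicate block, and from 227 (without cannabis rat 5) to 617 (without air control 3) with 1 library left out. Over all gene totals the number was 50, and it was 29 with a mean of at least 10, 98 without trend, 24 with the replicate block, 76 with DESeq2, and from 30 (without air control 1) to 90 (without cannabis rat 1) with 1 library left out. Of the 50 gene totals 18 were higher and 32 lower, against 12 and 42 with edgeR and 12 and 64 with DESeq2. Of the 375 sites 121 were higher and 254 lower, against 141 and 90 without air control 1. Libraries that share only a replicate number did not deviate together (mean r = -0.05 over 3 pairs, 0.02 over the other 13), no control numbered 1 to 3 correlated best with the cannabis rat of its own number, and with the block the log2 fold changes of the 7 members lay from -0.22 to 0.29. The cause of these differences was not tested. Depth limits the sites, since the median member site had 31 reads in all.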
